A study of Mus musculus with 20 samples.

Results

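Tight junction and gap junction genes were followed in the salivary glands of C57BL/6J mice, an inbred laboratory strain, aged 4, 8, 12 or 16 weeks. The genes, here called members, were chosen by symbol. They were all the claudins (Cldn), occludin (Ocln), the zonula occludens proteins (Tjp) and the connexins (Gja to Gje) on the array. This rule uses names and no measured value, but it was set with earlier results of these data known. The members were 37 of the 18194 genes measured, namely 20 claudins, 14 connexins, Ocln, Tjp1 and Tjp3. In the study these mice were the comparison strain for C57BL/6.NOD-Aec1Aec2 mice, which develop a disease like Sjögren's syndrome, and the arrays of that strain were not analysed here.

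Each age had 5 mice and each mouse 1 Affymetrix array of RNA from glands cleared of lymph nodes, with no treatment and no allele added to the strain in any group. Values are log2 signals, and a difference of 1 on this scale is a doubling. The labels call all mice male and the arrays of an age biological replicates. On all 20 arrays, however, Xist, which is transcribed from the inactive X chromosome, had signals of 8.96 to 10.7, and the Y-linked genes Eif2s3y, Kdm5d and Uty had signals of 2.07 to 2.97, 3.65 to 4.75 and 4.58 to 5.76, so the RNA did not match the labelled sex at any age. The acinar genes Aqp5 and Bhlha15 had signals of 8.19 to 10.9 and 8.51 to 11.1, as in salivary gland. The parotid product Bpifa2 ranged from 6.28 to 13.3, with means of 12.0 ± 1.96, 8.68 ± 2.70, 9.46 ± 3.12 and 9.38 ± 2.98 at the ages in turn (SD, n = 5), so that it was higher on average at 4 weeks and varied widely within each age. Amylase (Amy1), also a parotid product, ranged from 3.81 to 12.4. The labels do not say which salivary glands were taken from each mouse, so the share of parotid tissue on an array is not known. The arrays also differed in spread of signal, the standard deviation of all gene values on an array, with means of 1.68 ± 0.145, 1.50 ± 0.0901, 1.64 ± 0.0273 and 1.51 ± 0.139 for the ages in turn (SD, n = 5).

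Tight junctions close the space between neighbouring epithelial cells near their apical surface. Claudins form the strands and set which ions can pass, occludin lies beside them, and zonula occludens proteins tie the strands to actin. Connexins dock across the gap between cells to form channels through which ions and small messengers pass, and in salivary acini such channels link the secretory cells of a lobule. In acini the junctions let sodium and water follow chloride into the lumen, whereas duct junctions hold back the ions that the duct reabsorbs.

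At 8 weeks, 5 of the 37 junction genes were lower than at 4 weeks and 2 were higher (limma, adjusted p under 0.05). The lower genes were the claudins Cldn7, Cldn8 and Cldn10 and the connexins Gjb1 and Gjb2. The higher genes were Cldn16 and Gje1. The 5 lower genes were 13.5% of the members, against 4.13% of all genes tested, and the 2 higher genes were 5.41%, against 3.26%. All of the lower genes but Cldn7 lay above the 80th percentile of mean signal. In that range 70.9% of all genes had negative log2 fold changes in this period, against 45.2% over the whole range. The remaining 30 members did not pass, with log2 fold changes from -0.77 to 0.55 (adjusted p from 0.0819 to 0.973 by limma). Because the arrays measured whole glands, fewer cells of a type and less RNA per cell cannot be told apart.

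Promoters are shown for 3 of the 4 genes that were lower at both 8 and 16 weeks than at 4 weeks, because genes that move together can be compared in their start regions. Of the 37 members, 30 had an entry in the RefSeq promoter table used here (GRCm38.p6), and Cldn8, the other of the 4 genes, had none. Each line gives the 250 bases before an annotated start, 5′ to 3′ on the strand of the gene. Capitals mark GGGCGG (the GC box, read on both strands, so that CCGCCC is the same motif) and TATAAA (the TATA box). Gjb2 lies at chr14:57104703-57104952 on the minus strand, the starts of Cldn10 at chr14:118787621-118787870 and chr14:118854700-118854949 on the plus strand, and start 4 of Gjb1 at chrX:101383482-101383731 on the plus strand.
Gjb2: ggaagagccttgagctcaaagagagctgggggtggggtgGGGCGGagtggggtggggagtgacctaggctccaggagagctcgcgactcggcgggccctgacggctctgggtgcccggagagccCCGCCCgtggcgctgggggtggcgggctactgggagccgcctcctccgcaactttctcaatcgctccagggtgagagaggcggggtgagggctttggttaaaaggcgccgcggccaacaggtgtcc
Cldn10 start 1: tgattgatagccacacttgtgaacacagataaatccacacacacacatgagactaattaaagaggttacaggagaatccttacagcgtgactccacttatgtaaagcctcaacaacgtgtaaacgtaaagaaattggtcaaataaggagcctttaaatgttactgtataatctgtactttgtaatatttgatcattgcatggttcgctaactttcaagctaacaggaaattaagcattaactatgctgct
Cldn10 start 2: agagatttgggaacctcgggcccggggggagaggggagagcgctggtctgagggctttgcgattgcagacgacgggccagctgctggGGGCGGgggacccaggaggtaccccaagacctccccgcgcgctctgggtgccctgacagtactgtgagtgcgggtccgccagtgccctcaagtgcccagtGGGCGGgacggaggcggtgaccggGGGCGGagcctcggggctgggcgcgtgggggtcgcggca
Gjb1 start 4: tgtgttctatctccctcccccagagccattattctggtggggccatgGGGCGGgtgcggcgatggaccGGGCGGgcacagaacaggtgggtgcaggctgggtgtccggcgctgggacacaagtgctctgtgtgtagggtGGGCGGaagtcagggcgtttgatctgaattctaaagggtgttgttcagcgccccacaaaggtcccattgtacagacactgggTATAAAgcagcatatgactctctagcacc

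The 2 starts of Cldn10 differed in these letters. Start 2 held 3 GC boxes and start 1 held 0. Gjb2 held 2 GC boxes. Start 4 of Gjb1 held 3 GC boxes and a TATA box 29 bases before the start, and the other 3 starts of Gjb1 held neither motif. GGGCGG was present in 32.7% of 32851 promoters of the same length and TATAAA in 12.4%. Among 44 promoters of members 20 held GGGCGG and 5 held TATAAA, and among the 7 windows of these 3 genes 3 and 1 did. AACNGGTT, a motif of grainyhead factors, which act in epithelia, was searched on both strands and was in 1.79% of promoters and in 0 of the 7 windows of these 3 genes. These matches describe the letters in the windows and were not tested as sites.

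Cldn8, a barrier claudin known from ducts and the distal nephron, had the smallest adjusted p among the members both from 4 to 8 weeks and over the 4 ages. Its signals were 7.88, 8.23, 8.38, 8.81 and 8.37 in mice 1 to 5 at 4 weeks and 7.38, 7.29, 7.16, 7.88 and 6.39 at 8 weeks. At 12 weeks they were 8.03, 7.85, 7.87, 8.02 and 8.19, and at 16 weeks 7.58, 7.03, 7.25, 7.08 and 7.51. All 5 mice at 16 weeks were thus below all 5 at 4 weeks and all 5 at 12 weeks, whereas at 8 weeks mouse 4 reached the lowest signal of the mice at 4 weeks. Cldn8 fell by 1.11 from 4 to 8 weeks (standard error, SE, 0.21, adjusted p = 0.0173 by limma), a 2.16-fold lower signal. From 4 to 16 weeks it fell by 1.04 (SE 0.21, adjusted p = 0.015 by limma), and it differed over the 4 ages (adjusted p = 0.0148 by limma's F test).

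Cldn10 encodes a claudin that forms ion-selective pores and is made in forms that begin at different starts, which its single probe set here does not tell apart. Its signals were 8.26, 8.88, 9.36, 9.74 and 10.09 at 4 weeks and 6.93, 8.41, 6.95, 8.32 and 6.41 at 8 weeks. They were 8.31, 8.16, 9.13, 8.76 and 8.70 at 12 weeks and 8.87, 7.51, 7.65, 6.99 and 7.87 at 16 weeks. At 8 weeks 3 mice lay below all mice of 4 weeks and 2 lay just above the lowest of them, so the ages overlapped. Cldn10 fell by 1.86 from 4 to 8 weeks (SE 0.40, adjusted p = 0.0229 by limma), the change of largest size among the members in any period. From 4 to 16 weeks it fell by 1.49 (SE 0.40, adjusted p = 0.0443 by limma). The F test over the 4 ages called Cldn10 too (adjusted p = 0.0389 by limma), so that 2 of the 37 members passed it, or 5.41%, against 2.6% of all genes. At an unadjusted p under 0.05 the F test took in 14 members, or 37.8%, against 25.9%.

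Cldn7, a claudin found along the lateral membrane of many epithelia, had signals of 6.32, 6.50, 7.13, 7.49 and 8.32 at 4 weeks and of 6.61, 5.54, 5.89, 6.47 and 5.44 at 8 weeks. Its signals were 6.97, 6.89, 6.30, 6.32 and 6.96 at 12 weeks and 7.25, 6.02, 6.33, 5.88 and 6.01 at 16 weeks. Mouse 5 at 4 weeks stood above all others, and the 2 lowest mice of that age overlapped those at 8 weeks. Cldn7 fell by 1.16 from 4 to 8 weeks (SE 0.34, adjusted p = 0.0429 by limma). Its log2 fold change from 4 to 16 weeks was -0.86 and did not pass (adjusted p = 0.131 by limma).

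Both connexins that fell are the ones known from exocrine acini, where they form mixed channels. Gjb1 had signals of 7.79, 7.89, 8.69, 8.06 and 9.79 at 4 weeks and of 6.87, 7.81, 6.88, 7.79 and 6.36 at 8 weeks. Gjb1 at 12 weeks had signals of 8.34, 7.23, 7.82, 7.52 and 8.28, and at 16 weeks 7.82, 6.84, 7.41, 6.62 and 6.69. The mice at 8 weeks formed a lower group of 3 and a pair that met the lowest mice at 4 weeks. Gjb1 fell by 1.30 from 4 to 8 weeks (SE 0.36, adjusted p = 0.039 by limma) and by 1.37 from 4 to 16 weeks (SE 0.36, adjusted p = 0.0426 by limma). Both of its probe sets fell in both comparisons when all probe sets were tested.

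Gjb2 had signals of 7.74, 7.58, 8.70, 8.66 and 8.48 at 4 weeks and of 7.53, 7.71, 7.27, 7.56 and 6.70 at 8 weeks. Its signals were 7.94, 7.75, 7.77, 7.87 and 8.06 at 12 weeks and 8.13, 7.34, 6.95, 6.86 and 7.29 at 16 weeks. At 4 weeks 3 mice were clearly higher than the other 2, which lay close to the mice at 8 weeks, and all mice at 12 weeks were above all at 8 weeks. Gjb2 fell by 0.88 from 4 to 8 weeks (SE 0.25, adjusted p = 0.0407 by limma) and by 0.92 from 4 to 16 weeks (SE 0.25, adjusted p = 0.0448 by limma). Neither call held after cyclic loess of the arrays, with -0.49 and -0.47 (adjusted p = 0.0876 and 0.123 by limma), or after quantile normalization, with -0.49 and -0.53 (adjusted p = 0.0952 and 0.099 by limma). Its neighbours on the chromosome in the RefSeq table, the connexin genes Gja3 and Gjb6, differed by 0.15 and 0.28 on the log2 scale between 4 and 8 weeks (adjusted p = 0.664 and 0.205 by limma).

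The 2 genes that rose had dim probe sets, under the 40th percentile of mean signal. Gje1 ranged from 1.95 to 3.01, close to the 2.07 to 2.97 of the Y-linked Eif2s3y. Cldn16 ranged from 4.12 to 5.42, against 4.58 to 5.76 for the Y-linked Uty. Whether either gene was transcribed in the gland is thus not known. Cldn16, known for its part in the uptake of magnesium in the kidney, had signals of 4.45, 4.15, 4.42, 4.34 and 4.12 at 4 weeks and of 4.64, 4.40, 5.28, 4.88 and 5.42 at 8 weeks. At 12 weeks it had 4.49, 4.50, 4.55, 4.32 and 4.37, and at 16 weeks 4.54, 5.02, 4.79, 4.87 and 4.52. Cldn16 rose by 0.63 from 4 to 8 weeks (SE 0.16, adjusted p = 0.034 by limma), with mouse 2 at 8 weeks within the range of 4 weeks. All mice at 16 weeks were above all at 4 weeks, yet the log2 fold change of 0.45 did not pass (adjusted p = 0.11 by limma). Cldn1, an adjacent gene that encodes a sealing claudin, had a log2 fold change of -0.46 at 8 against 4 weeks (SE 0.17, adjusted p = 0.0852 by limma).

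Gje1, a divergent member of the connexin family, had signals of 1.97, 1.96, 2.04, 2.09 and 1.95 at 4 weeks and of 2.40, 3.01, 2.36, 2.21 and 2.32 at 8 weeks. Its signals were 2.15, 2.16, 2.23, 2.30 and 2.39 at 12 weeks and 2.07, 2.01, 2.14, 2.12 and 2.19 at 16 weeks. All 5 mice at 8 weeks were above all 5 at 4 weeks, and mouse 2 at 8 weeks stood apart from the rest. Gje1 rose by 0.46 (SE 0.13, adjusted p = 0.0387 by limma). It did not pass after cyclic loess, with 0.27 (adjusted p = 0.155 by limma), or quantile normalization, with 0.31 (adjusted p = 0.114 by limma). It was the 1 member whose ages did not overlap in this period (2.7% of members, against 3.79% of all genes higher without overlap and 1.96% lower).

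**Figure D1:**
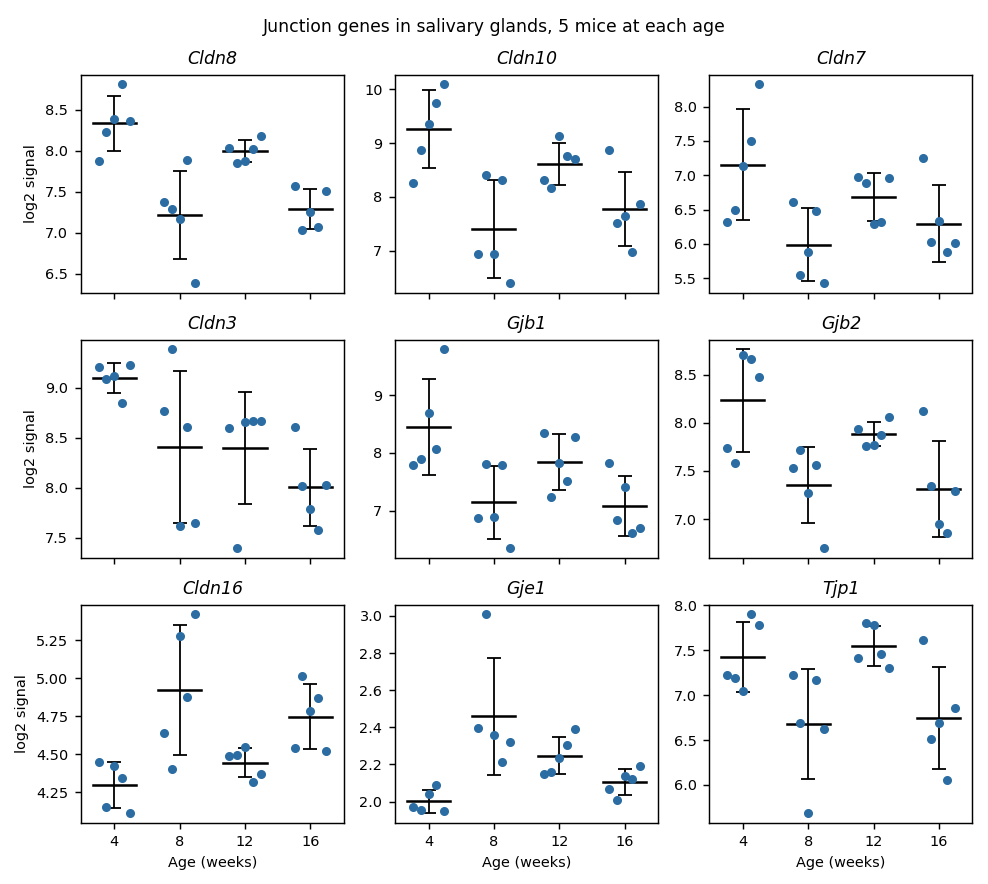
Log2 signal (vertical axis, a separate scale for each gene) against age in weeks for the 8 junction genes called in any comparison and for Tjp1. Points are mice 1 to 5 from left to right, long lines the mean and bars the SD (n = 5). Cldn7, Cldn8, Cldn10, Gjb1, Gjb2 and Tjp1 have lower means at 8 and 16 weeks than at 4 and 12 weeks.

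Single arrays stood out across the 5 genes that were lower at 8 weeks. Mouse 5 at 8 weeks was the lowest of its age in 5 of 5, and its array had the narrowest spread of signal of all, 1.38. Mouse 1 at 16 weeks was the highest of its age in 5 of 5, and its array had the widest spread of that age, 1.74. At 4 weeks mouse 5, whose array had the widest spread of all at 1.90, was the highest in 3 of 5. With spread of signal in the model 0 of the 37 members and 16 genes in all passed from 4 to 8 weeks by limma. The log2 fold change was then -1.02 for Cldn10, -0.78 for Cldn8, -0.53 for Gjb1, -0.36 for Gjb2 and -0.34 for Cldn7 (adjusted p = 0.267, 0.202, 0.503, 0.526 and 0.563 by limma). It was 0.42 for Cldn16 and 0.45 for Gje1 (adjusted p = 0.406 and 0.304 by limma). All 7 genes thus kept their sign, and Gje1 kept nearly its size. Among the falls, those of Cldn7, Cldn10, Gjb1 and Gjb2 shrank more than that of Cldn8. With the signal of Bpifa2 as a covariate, 0 members and 3 genes in all passed by limma, and the log2 fold changes were -1.50 for Cldn10, -1.05 for Cldn8 and -1.22 for Gjb1 (adjusted p = 0.138, 0.119 and 0.171 by limma). With age alone 9 members were lower and 4 higher at an unadjusted p under 0.05 (24.3% and 10.8%, against 15.5% and 16.9% of all genes).

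The calls from 4 to 8 weeks rested on single mice. The count of 7 fell to 0 without mouse 4 or mouse 5 at 4 weeks, and without mouse 3 or mouse 5 at 8 weeks. It was 3 without mouse 3 at 4 weeks (Cldn10, Cldn16 and Cldn8). The count over all genes moved too, from 1345 with all mice to between 14 and 22 in the 4 fits that left 0 members, and to 1070 without mouse 3 at 4 weeks. When only the arrays of both ages were fitted 0 members and 2 genes in all passed. In all 32 alternatives Cldn8 and Cldn10 stayed negative from 4 to 8 weeks, from -1.28 to -0.73 and from -2.11 to -1.02, and each passed in 25 of them.

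From 8 to 12 weeks 0 of the 37 members passed by limma, where 1 of all genes was higher (0.0055%) and 0 were lower. At an unadjusted p under 0.05 4 members were higher (10.8%, against 11.1% of all genes), namely Cldn8, Cldn10, Gjb2 and Tjp1. The 5 lower members (13.5%, against 7.74%) were Cldn9, Cldn13, Cldn16, Cldn18 and Gja3. All of these but Cldn13 had dim probe sets, under the 40th percentile of mean signal, where 73.7% of all genes were negative. The other probe sets of Cldn9, Cldn18 and Gja3 had -0.10, -0.22 and 0.009, against -0.27, -0.50 and -0.58 for those used. The log2 fold changes of Cldn10, Cldn8, Gjb1, Cldn7 and Gjb2 were 1.21, 0.77, 0.70, 0.70 and 0.53 (adjusted p = 0.161, 0.129, 0.298, 0.266 and 0.26 by limma). The mice of both ages did not overlap for Gjb2 and Tjp1, both higher at 12 weeks (5.41% of members, against 3.39% of all genes). Without mouse 4 at 8 weeks Cldn8 passed, as the 1 member called, against 1.24% of all genes.

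Tjp1, the scaffold that binds claudins to actin, had signals of 7.22, 7.19, 7.04, 7.90 and 7.78 at 4 weeks and of 7.22, 6.69, 5.69, 7.17 and 6.62 at 8 weeks. Its signals were 7.41, 7.80, 7.78, 7.46 and 7.30 at 12 weeks and 7.61, 6.51, 6.69, 6.06 and 6.86 at 16 weeks. The mice at 12 weeks were close together and above all mice at 8 weeks and all but mouse 1 at 16 weeks. The log2 fold changes of Tjp1 were -0.75, 0.87 and -0.81 in the 3 periods in turn (adjusted p = 0.0819, 0.151 and 0.225 by limma), so that it did not pass in any.

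From 12 to 16 weeks 0 of the 37 members passed by limma, against 0.187% of all genes lower and 0.0055% higher. At an unadjusted p under 0.05 5 members were lower (13.5%, against 9.99% of all genes), namely Cldn8, Cldn10, Gjb1, Gjb2 and Tjp1. The 4 higher members (10.8%, against 4.18%) were Cldn9, Cldn18, Gja3 and Tjp3. All 4 had dim probe sets, under the 40th percentile of mean signal, where 41.5% of all genes were negative, against 53.2% over the whole range. The other probe sets of Cldn9, Cldn18 and Gja3 had -0.03, 0.20 and -0.13, against 0.36, 0.61 and 0.58 for those used. Cldn8 was lower in all 5 mice at 16 weeks than in all 5 at 12 weeks (2.7% of members, against 1.86% of all genes), with a log2 fold change of -0.70 (SE 0.21, adjusted p = 0.168 by limma). Without mouse 1 at 16 weeks 3 members passed, Cldn8 and Tjp1 lower and Cldn18 higher, against 5.69% of all genes. Without that mouse and mouse 5 at 4 weeks, a pair chosen for their wide spread after seeing the data, 6 members passed, Cldn18 higher and Cldn8, Cldn12, Gjb1, Gjb2 and Tjp1 lower, against 10.1% of all genes.

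Tjp3, a further zonula occludens protein of epithelia, had signals of 4.89, 4.37, 4.64, 4.48 and 5.18 at 4 weeks and of 4.86, 4.21, 4.00, 4.84 and 4.01 at 8 weeks. Its signals were 4.64, 4.62, 4.29, 4.71 and 4.56 at 12 weeks and 6.25, 5.46, 4.84, 4.79 and 5.34 at 16 weeks. All mice at 16 weeks were above all at 12 weeks (2.7% of members, against 0.791% of all genes), and mouse 1 was the highest. The log2 fold change from 12 to 16 weeks was 0.77 and did not pass (SE 0.24, adjusted p = 0.183 by limma). With spread of signal in the model it was 1.12 and passed (adjusted p = 0.00792 by limma), as the 1 member of 27 genes called. It was 1.07 from 4 to 16 weeks with this covariate (adjusted p = 0.0102 by limma), against 0.62 without it (adjusted p = 0.13 by limma). Without mouse 1 at 16 weeks and mouse 5 at 4 weeks it was 0.54 from 12 to 16 weeks (adjusted p = 0.0876 by limma). From 4 to 16 weeks it was then 0.51 (adjusted p = 0.14 by limma). The probe set of Tjp3 was dim, under the 40th percentile of mean signal.

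**Figure D2:**
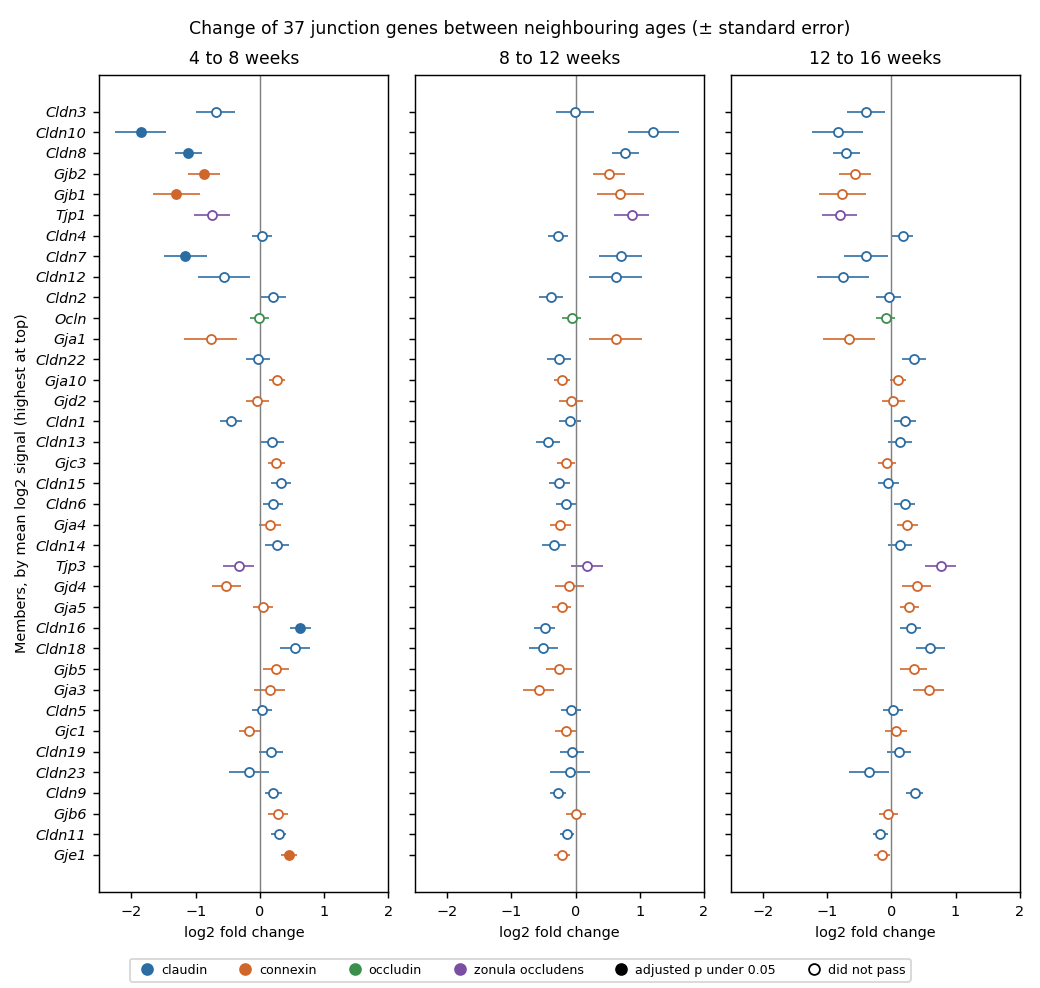
Log2 fold change (horizontal axis) of all 37 junction genes from 4 to 8, 8 to 12 and 12 to 16 weeks, with bars of 1 standard error and genes ordered by mean log2 signal. Filled points passed limma's test at an adjusted p under 0.05, 7 in the first period and 0 in the other 2.

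Over the whole span from 4 to 16 weeks 5 members were lower, Cldn3, Cldn8, Cldn10, Gjb1 and Gjb2 (13.5%, against 3.12% of all genes), and 0 were higher by limma, against 0.506% of all genes. At an unadjusted p under 0.05 7 members were lower (18.9%, against 15.2% of all genes) and 4 higher (10.8%, against 9.01%). This comparison shares the arrays of 4 weeks with that from 4 to 8 weeks. Cldn3, a sealing claudin of most glandular epithelia, had signals of 9.21, 9.09, 9.11, 8.84 and 9.23 at 4 weeks and of 8.77, 9.38, 7.62, 8.61 and 7.65 at 8 weeks. Its signals were 8.59, 7.40, 8.66, 8.67 and 8.66 at 12 weeks and 8.61, 8.02, 7.79, 7.58 and 8.03 at 16 weeks. The mice at 4 weeks lay close together and above all mice at 16 weeks, mouse 2 at 8 weeks exceeded them, and mouse 2 at 12 weeks stood far below its age. Cldn3 fell by 1.09 from 4 to 16 weeks (SE 0.30, adjusted p = 0.0456 by limma). This call did not hold after cyclic loess, with -0.44 (adjusted p = 0.303 by limma), or quantile normalization, with -0.52 (adjusted p = 0.238 by limma). Its 4 probe sets all had negative log2 fold changes in this comparison, from -1.60 to -1.09, and 3 of them passed when all probe sets were tested. From 4 to 8 weeks the 4 probe sets of Cldn3 ranged from -1.80 to -0.69. Of these 1 passed, but not the brightest, which stands for the gene. Cldn4, the adjacent gene on the chromosome and also a barrier claudin, had a log2 fold change from 4 to 16 weeks of -0.07 (SE 0.16, adjusted p = 0.821 by limma). The mice of 4 and 16 weeks did not overlap for Cldn3 and Cldn8, both lower (5.41% of members, against 1.65% of all genes), and for Cldn16, higher (2.7%, against 1.42%).

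Single mice decided this comparison also. The count of 5 was 0 without mouse 4 at 4 weeks or without mouse 2 or mouse 4 at 16 weeks, and 9 without mouse 1 at 16 weeks. It was 1, Cldn8, without mouse 3 or 5 at 4 weeks, mouse 1, 3, 4 or 5 at 12 weeks, or mouse 3 or 5 at 16 weeks, and 3 without mouse 2 at 12 weeks (Cldn3, Cldn8 and Gjb1). The share of all genes called in this comparison moved too, from 0.445% without mouse 2 at 16 weeks to 16.5% without mouse 1 at 16 weeks. The F test called 1 member, Cldn8, without any of mice 3, 4 and 5 at 4 weeks, mice 1, 3 and 5 at 8 weeks, mice 1, 3, 4 and 5 at 12 weeks or mice 2, 3, 4 and 5 at 16 weeks. It called 4 members without mouse 4 at 8 weeks and 10 without mouse 1 at 16 weeks, and over all genes it called 85 to 2611 when 1 mouse was left out. After cyclic loess 0 of the 5 members passed from 4 to 16 weeks, with -0.89 for Cldn10, -0.59 for Cldn8 and -0.94 for Gjb1 (adjusted p = 0.0733, 0.0619 and 0.0536 by limma), and after quantile normalization Gjb1 alone passed (-0.997, adjusted p = 0.043 by limma). With spread of signal in the model the log2 fold changes from 4 to 16 weeks of Cldn10, Cldn3, Cldn8, Gjb1 and Gjb2 were -0.71, -0.72, -0.74, -0.66 and -0.44 (adjusted p = 0.357, 0.33, 0.0889, 0.341 and 0.378 by limma). With Bpifa2 as a covariate they were -1.21, -0.97, -0.999, -1.30 and -0.75 (adjusted p = 0.174, 0.168, 0.0645, 0.141 and 0.177 by limma). All 5 stayed negative in both fits, and Cldn8 came nearest to the threshold in each.

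**Figure D3:**
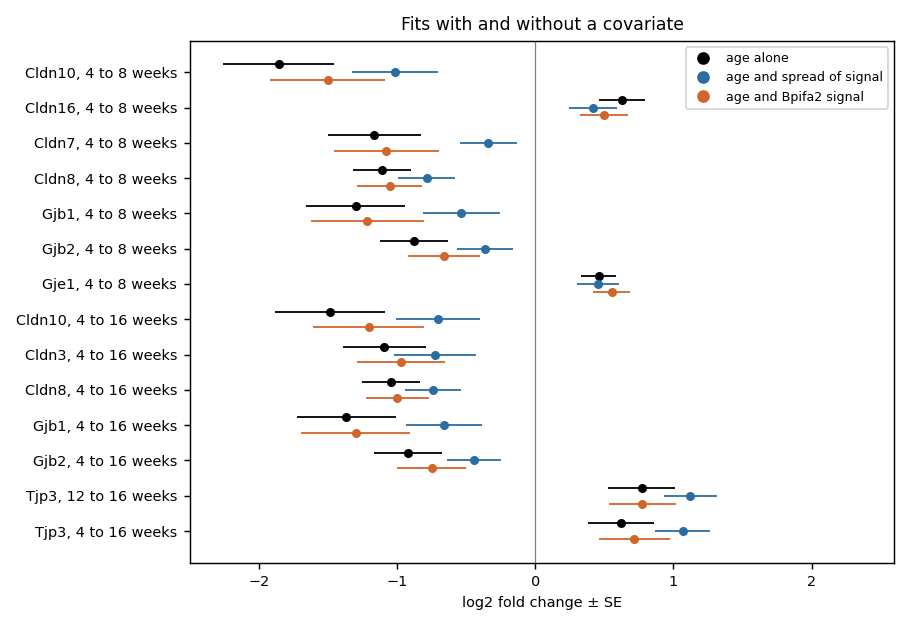
Log2 fold change with bars of 1 standard error (horizontal axis) for each call of a junction gene and for Tjp3, fitted with age alone, with age and the spread of signal of the arrays, and with age and the signal of Bpifa2. No value changes sign, the falls are smaller with the spread of signal, and Tjp3 is larger with it, at 1.12 from 12 to 16 weeks.

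The claudins and connexins did not share 1 direction. The members' median log2 fold change was 0.03 from 4 to 8 weeks, with 17 of 37 negative (45.9%), against 0.05 over all genes (45.2% negative). It was -0.13 from 8 to 12 weeks, with 28 negative (75.7%), against -0.05 (55.9%), and 0.03 from 12 to 16 weeks, with 17 negative, against -0.02 (53.2%). From 4 to 16 weeks it was -0.02, with 20 negative (54.1%), against 0.01 (49.1%). The direction differed with the brightness of the probe sets. The 6 members above the 80th percentile of mean signal, Cldn3, Cldn8, Cldn10, Gjb1, Gjb2 and Tjp1, had medians of -0.99, 0.73 and -0.73 in the 3 periods, against -0.37, 0.35 and -0.34 for the 3639 genes of that range. The 19 members under the 40th percentile had medians of 0.21, -0.21 and 0.21, against 0.15, -0.13 and 0.04 for 7278 genes. These medians are descriptions without a test, and a probe set's signal also depends on its probes.

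**Figure D4:**
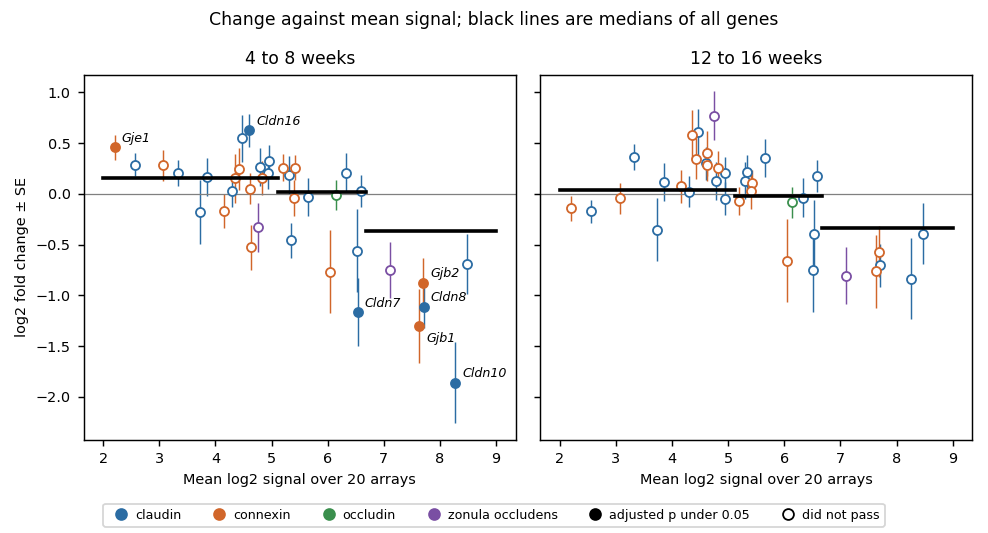
Log2 fold change with bars of 1 standard error (vertical axis) against mean log2 signal over 20 arrays (horizontal axis) for the 37 junction genes from 4 to 8 and from 12 to 16 weeks. Black lines are the medians of all genes under the 40th, between the 40th and 80th and above the 80th percentile of mean signal, 0.15, 0.02 and -0.37 in the first period, and the bright junction genes lie below the line of their range.

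Other junction genes of the gland were not called in any comparison. Ocln had mean signals of 6.20 ± 0.263, 6.19 ± 0.202, 6.13 ± 0.127 and 6.05 ± 0.266 at the 4 ages in turn (SD, n = 5). Its log2 fold changes lay between -0.15 and -0.01 in the 4 comparisons. Cldn4 had 6.65 ± 0.303, 6.68 ± 0.107, 6.41 ± 0.326 and 6.59 ± 0.127. Gja1, the connexin of myoepithelial and many stromal cells, ranged widely, with 6.47 ± 0.61, 5.70 ± 0.633, 6.32 ± 0.905 and 5.67 ± 0.691. Its log2 fold change from 4 to 8 weeks was -0.77 (SE 0.41, adjusted p = 0.193 by limma), and of its 6 probe sets 5 were negative and 1 positive, with 0 called. The 4 probe sets of Cldn1 differed too, with 1 negative and 3 positive from 4 to 8 weeks.

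Junction genes of other cell types in the gland did not pass in any period. The endothelial Cldn5, which seals small vessels, had mean signals of 4.31 ± 0.293, 4.34 ± 0.103, 4.27 ± 0.164 and 4.29 ± 0.296 at the 4 ages (SD, n = 5). The vascular connexins Gja4 and Gja5 differed by 0.16 and 0.05 on the log2 scale between 4 and 8 weeks (adjusted p = 0.519 and 0.833 by limma), and Gjc1, of smooth muscle and heart, had -0.17 (adjusted p = 0.491). Cldn11 and Cldn19, which close the layers of myelin in the brain and in nerves, had 0.29 and 0.17 (adjusted p = 0.0992 and 0.538 by limma), and the glial connexin Gjc3 had 0.26 (adjusted p = 0.186). Of these genes Gjc3 had a mean signal above the 40th percentile of all genes, a limit that 18 of the 37 members passed, and the others were under it.

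The partners of these proteins did not pass either. Of 30 listed partners of tight junctions, such as junctional adhesion molecules, tricellulin and polarity proteins, 29 were measured, and 0 passed in any of the 4 comparisons by limma, with medians of -0.12, 0.14, -0.10 and -0.08 from 4 to 8, 8 to 12, 12 to 16 and 4 to 16 weeks. At an unadjusted p under 0.05 these comparisons had 7, 0, 3 and 6 of the 29 lower and 1, 6, 1 and 1 higher, against 15.5%, 7.74%, 9.99% and 15.2% of all genes lower and 16.9%, 11.1%, 4.18% and 9.01% higher. Of 8 partners of gap junctions and pannexins 7 were measured and 0 passed by limma, with 3 higher and 0 lower from 4 to 8 weeks at an unadjusted p under 0.05. Of 14 transcription factors of epithelial junctions and their repressors, 1 passed in 1 comparison. Klf5, an activator in epithelia, fell by 0.89 from 4 to 16 weeks (SE 0.23, adjusted p = 0.0423 by limma), from signals of 6.32 to 7.88 at 4 weeks to 5.89 to 6.72 at 16 weeks, which overlapped.

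Markers of cell types were measured on the same arrays. From 4 to 8 weeks 4.13% of all genes were lower and 3.26% higher by limma, and 15.5% and 16.9% at an unadjusted p under 0.05. From 4 to 16 weeks 3.12% were lower and 0.506% higher by limma. A single gene called in a short list is therefore not a result about its cell type. Of 10 measured acinar and secretory products 0 passed by limma from 4 to 8 weeks, with 5 lower at an unadjusted p under 0.05. Smgc fell from 4 to 16 weeks. This list had median log2 fold changes of -0.77, 0.58 and -0.47 in the 3 periods in turn, with 7, 3 and 9 negative. The medians over all genes were 0.05, -0.05 and -0.02. Of 9 duct genes Klk1b1 and Klk1b5 rose from 4 to 8 and from 4 to 16 weeks. Of 6 myoepithelial and basal genes Myh11 fell from 4 to 8 weeks, and the summed signals of this list were 10.5 to 11.6 at 4 weeks and 10.1 to 11.2 at 8 weeks. From 4 to 8 weeks 1 of 7 lymphocyte genes (Cd3e) and 1 of 5 fat cell genes (Retn) rose, and 1 of 6 macrophage genes (Cd68) fell. Of 8 endothelial, 4 Schwann cell and 8 skeletal muscle genes 0 passed in either comparison by limma, with 1, 1 and 0 lower from 4 to 8 weeks at an unadjusted p under 0.05. The epithelial cadherin Cdh1 had means of 9.36, 8.10, 8.83 and 8.14 at the 4 ages, and the epithelial surface gene Epcam had 8.63, 8.87, 8.56 and 8.85. Cdh1 thus had its lower means, and Epcam its higher means, at 8 and 16 weeks, and neither passed in any comparison. The part of the makeup of the tissue in these results was not tested beyond the fits with Bpifa2.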

How the data were processed

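The authors deposited log2 signals of 45101 probe sets, made from Affymetrix mouse genome arrays by RMA, and no further normalization was made here. Which arrays were normalized together is not given in the sources used here. Of the probe sets, 34958 had 1 gene symbol, 932 had several and 9211 were not listed. For each of 18194 genes, the probe set brightest on average over the 20 arrays was used, and the members had 58 probe sets. The ages were tested by a limma fit (version 3.58.1, R 4.3.3) to all arrays. The p-values were Benjamini-Hochberg adjusted across the genes, with a threshold of 0.05. The p-values measure the spread between mice, and 5 arrays an age limit the precision.

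Members and lists were chosen with earlier results of these data known. Members called in any comparison were named with the values of all mice. Others were named where 2 neighbouring ages did not overlap or where textbooks give them as junction genes of epithelium, vessels or nerve, and Cldn9, Cldn12, Cldn13, Cldn18 and Gja3 after their values were seen. The fits were tested on simulated data with independent noise for each gene, so that array-wide differences in spread of signal were not simulated. Alternatives were other scalings, probe set rules, filters, variance models, sets of arrays and covariates, and each mouse left out.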

Additional observations from a re-analysis of the deposited data

Results flagged for a closer look

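In 8 of 148 groups of 5 mice, 1 mouse lay far from the rest of its age for a junction gene, and chance gives about 1 in 20 groups. Cldn3 was lowest in mouse 2 at 12 weeks, at 7.40 against 8.59 to 8.67 in the others. Cldn4 was lowest in mouse 4 at 8 weeks, at 6.49 against 6.71 to 6.74, and Gjb5, a connexin of skin, in mouse 1 at 16 weeks, at 4.08 against 4.70 to 4.79. Cldn15 was highest in mouse 3 at 12 weeks, at 5.37 against 4.70 to 4.86, and Gjd4 in mouse 4 at 12 weeks, at 4.76 against 4.19 to 4.31. Cldn19 was highest in mouse 2 at 16 weeks, at 4.87 against 3.53 to 3.86. Gjb6 was highest in mouse 5 at 8 weeks, at 3.79 against 2.94 to 3.09, and Gje1 in mouse 2 at 8 weeks, at 3.01 against 2.21 to 2.396. The 8 values came from 8 different arrays. Gje1 is the 1 of these genes that rose from 4 to 8 weeks.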

How the results depend on the processing

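The counts of members called from 4 to 8, 8 to 12, 12 to 16 and 4 to 16 weeks and over the 4 ages were 7, 0, 0, 5 and 2. They were within 1.5 times of this with the mean of probe sets, with arrays centred on their median and with a filter at the 40th percentile. With cyclic loess 0 members passed from 4 to 16 weeks and 1 over the 4 ages, against 4.28% and 3.36% of all genes. With quantile normalization 1 and 1 passed, against 3.8% and 3.14%. With spread of signal in the model the counts were 0 from 4 to 8 weeks and 1 (Tjp3) from 12 to 16 weeks, from 4 to 16 weeks and over the 4 ages. With array weights they were 2 from 4 to 8 weeks, 4 from 12 to 16 weeks and 7 over the 4 ages, and with trend and robust variances 3 from 4 to 16 weeks. With only the arrays of the 2 ages compared they were 0 from 4 to 8, 1 from 12 to 16 and 2 from 4 to 16 weeks. Chosen after seeing the data, the fit without the 2 arrays of widest spread called 2, 2 and 6 members in the 3 periods and 6 over the 4 ages, and that with Bpifa2 called 0 in every comparison. With 1 mouse left out the counts ranged from 0 to 10, 0 to 1, 0 to 3, 0 to 9 and 1 to 10. Over all genes the counts then ranged from 14 to 2694, 1 to 225, 9 to 1035, 81 to 3003 and 85 to 2611. With all mice 1345, 1, 35, 660 and 473 genes passed. The cause of these differences was not tested. Mouse numbers are shared by the ages, but same-numbered arrays did not deviate together (mean correlation -0.04, from -0.57 to 0.58, and 2 of 20 arrays closest to their own number). With the replicate block 2 members passed from 4 to 8 weeks, 1 from 4 to 16 weeks and 1 over the 4 ages. Counts over all genes are not given here for array weights, trend and robust variances or the replicate block. Of 382 values of called members under these alternatives, 0 changed sign, 221 passed the test and 161 did not. Scaling moved the median of all genes by less than 0.1, which does not show how far single genes moved. After cyclic loess all 5 members called from 4 to 16 weeks had smaller falls, with Cldn3 at -0.44 against -1.09.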
